A study of Homo sapiens with 48 samples.

Results

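Thrombospondins and genes with thrombospondin domains were examined in PSN1 cells, a human pancreatic ductal adenocarcinoma (PDAC) line, that had acquired resistance to the PARP inhibitor Talazoparib. The set held 10 of the 20241 genes in the deposited table. It comprised the thrombospondins THBS1, THBS2, THBS3 and THBS4, the thrombospondin-domain genes THSD1, THSD4, THSD7A and THSD7B, and the spondins SPON1 and SPON2. The set was chosen by family name around THSD7A, which was selected on its own values in these libraries because it had the most negative log2 difference between TalaR-M and TalaR-DF cells. Differences of THSD7A, and differences of any member between TalaR-M and TalaR-DF cells, are therefore given as descriptions with no test.

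RNAseq was compared among 3 groups of PSN1 cells, each with 3 replicates. Parental cells had not been made resistant. TalaR-M cells were resistant cells (TalaR) held in medium with 50 nM Talazoparib, labelled with a time of 4 months. TalaR-DF cells were TalaR cells moved to drug-free medium for 4 weeks. All 3 groups come from 1 cell line, and the labels do not say whether the replicates were separate cultures, so p-values measure the spread between these libraries only, which may be technical.

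Thrombospondins are large secreted glycoproteins of the extracellular matrix that bind cell surface receptors, growth factors and proteases. Many of their relatives share only the thrombospondin type 1 repeat (TSR), a small disulfide-bonded module that THBS3 and THBS4 lack, that carries fucose and C-linked mannose and that also occurs in guidance receptors, ADAMTS-like proteins and CCN proteins. In carcinomas THBS1 is best known as an inhibitor of angiogenesis and an activator of latent TGF-beta.

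Values are log2 CPM (CPM, the reads of a gene scaled to a common library size), with all values under 0 deposited as 0. Each library held from 8387755 to 14973847 reads on the genes that exceeded 1 CPM, and 1 CPM stood for 6.97 to 14.54 reads, below which a gene is listed at 0. TalaR-M replicate 2 was the shallowest library and stood apart from the other TalaR-M libraries. Over 10464 genes, its deviation from its group had a median of 1.43 (log2) in the shortest 10% of transcripts and of -1.45 in the longest 10%, while in the 6 parental and TalaR-DF libraries the longest minus the shortest lay between -0.26 and 0.19. Differences of TalaR-M cells are therefore given with and without this library. Ductal markers had summed levels of 1236 to 1300 CPM in parental, 1821 to 5861 CPM in TalaR-M and 1049 to 1190 CPM in TalaR-DF libraries. Marker sums here and below include TalaR-M replicate 2 and were not computed without it, so that library may set an end of a TalaR-M range. Of the markers of other cell types, 2 of 6 endothelial (VWF, CLDN5) and 2 of 6 fibroblast markers (FAP, ACTA2) were at 0 in all 9 libraries.

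Promoter sequences are shown for the 3 members on which the results below turn most, THBS1 with the largest rise, THSD7A with the level nearly lost in TalaR-M cells and SPON2 with no level in resistant cells. They came from RefSeq (build GRCh38.p14) and run from 250 bases before to 50 bases after the start of transcription. 9 of the 10 members had an entry, with 15 windows in all, and SPON1 had none. Capitals mark matches to GGAATG, the core recognised by TEAD factors, or CACCTG, an E-box bound by SNAI factors, searched on both strands. The motifs do not overlap each other and were picked after the values were known. The THSD7A window lies at chr7:11832149-11832448 on the minus strand, the THBS1 window at chr15:39580829-39581128 on the plus strand, and the upstream SPON2 window at chr4:1208795-1209094 on the minus strand.
THSD7A promoter: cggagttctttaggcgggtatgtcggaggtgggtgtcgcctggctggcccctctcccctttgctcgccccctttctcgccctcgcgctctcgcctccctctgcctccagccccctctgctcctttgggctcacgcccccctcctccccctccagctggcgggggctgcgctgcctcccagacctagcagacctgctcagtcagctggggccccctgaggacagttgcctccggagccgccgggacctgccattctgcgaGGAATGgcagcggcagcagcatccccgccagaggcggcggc
THBS1 promoter: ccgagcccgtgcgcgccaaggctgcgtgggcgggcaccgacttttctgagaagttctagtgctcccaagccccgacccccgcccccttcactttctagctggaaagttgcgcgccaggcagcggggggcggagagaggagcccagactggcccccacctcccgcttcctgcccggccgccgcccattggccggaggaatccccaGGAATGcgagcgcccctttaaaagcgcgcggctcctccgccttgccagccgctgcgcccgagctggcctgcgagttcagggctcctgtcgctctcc
SPON2 promoter: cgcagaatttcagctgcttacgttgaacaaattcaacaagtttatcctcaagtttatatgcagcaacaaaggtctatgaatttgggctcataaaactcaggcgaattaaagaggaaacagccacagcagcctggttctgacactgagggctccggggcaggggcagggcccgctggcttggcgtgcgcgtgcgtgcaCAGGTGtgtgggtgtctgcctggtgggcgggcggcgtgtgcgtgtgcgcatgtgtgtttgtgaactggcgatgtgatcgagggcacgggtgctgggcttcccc

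The THBS1 window held 1 GGAATG starting 46 bases before the start, and the THSD7A window held 1 starting 9 bases after it. The SPON2 window shown held 1 E-box match starting 53 bases before the start, read as its reverse complement. The other SPON2 windows, at chr4:1173131-1173430 and chr4:1172534-1172833, held neither motif. Among the members not shown, GGAATG also occurred in a window of THBS2, of THSD4 and of THSD7B, and CACCTG in a window of THBS3. Windows of THBS4 and THSD1 held neither motif. Of 35116 promoter windows of the same length, 14.0% held GGAATG and 20.6% held CACCTG on either strand. The THBS1 window held 29 CG dinucleotides and the THSD7A window 20, against a median of 14 over all windows.

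**Figure D1:**
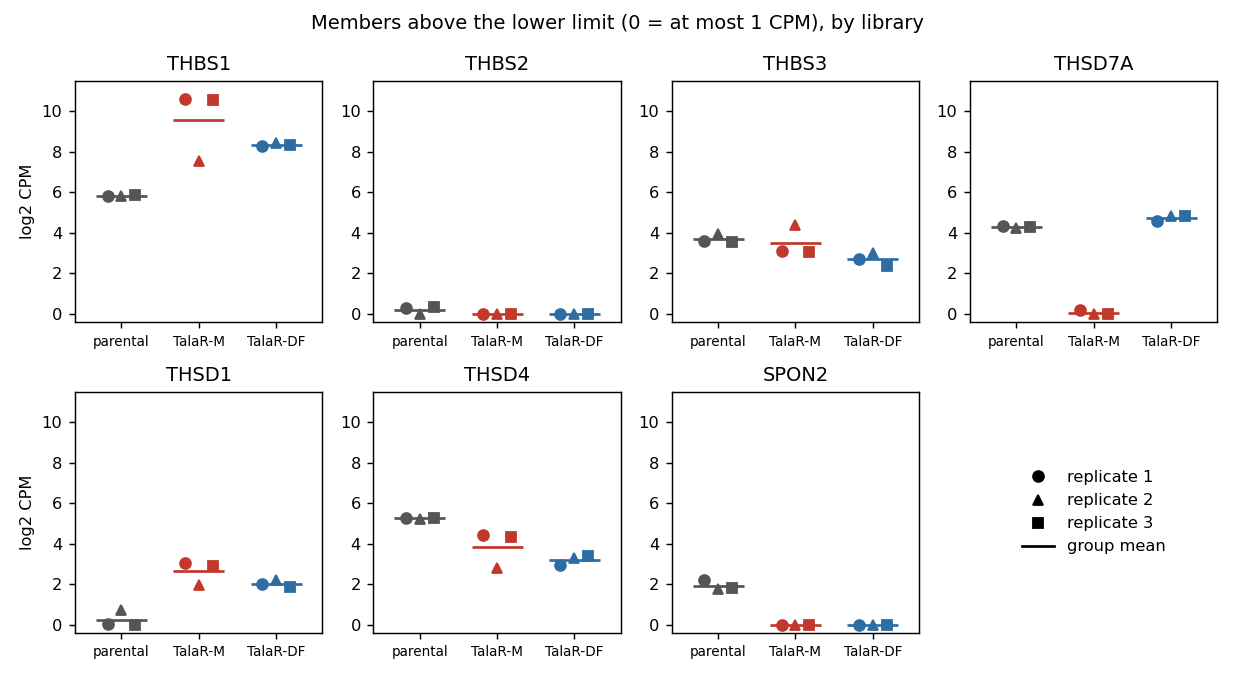
Log2 CPM of the 7 members that passed the filter on low values, in each of the 9 libraries (y axis, log2 CPM; x axis, group; symbols, replicates; lines, group means). THSD7A is at or near 0 in the TalaR-M libraries only, THBS1 is higher in all TalaR-M and TalaR-DF libraries than in any parental one, and SPON2 is above 0 in parental libraries only.

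7 of the 10 members passed the filter, above 1 CPM in at least 3 libraries, and the 6 of them other than THSD7A were tested against parental cells. THSD7B, a close relative of THSD7A, THBS4, a pentameric thrombospondin of tendon and muscle, and SPON1, an axon guidance protein of the floor plate, were at 0 in all 9 libraries. THBS2 only just passed, at 0.30, 0 and 0.36 log2 CPM in parental libraries, at most 0.0002 in TalaR-M libraries and 0 in all TalaR-DF libraries. SPON2 passed through the parental libraries alone, so that it had to differ from the groups at 0.

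Compared per kb of transcript, THBS1 was the highest member in every group. In parental cells its log2 CPM per kb was 2.89 ± 0.04 (SD, n = 3), followed by THBS3 at 2.04 ± 0.22 and THSD4 at 2.03 ± 0.02, which did not differ beyond their spread. SPON2 at 1.26 ± 0.24 and THSD7A at 0.88 ± 0.03 came next. THSD1 and THBS2 were the lowest, with libraries at 0. In TalaR-DF cells the order was THBS1 (5.39 ± 0.06), THSD7A (1.35 ± 0.14), THBS3 (1.05 ± 0.32), THSD1 (0.44 ± 0.18) and THSD4 (-0.02 ± 0.21) on the same per-kb scale, and the ranges of THSD7A and THBS3 overlapped. In TalaR-M cells THBS1 stood at 6.63 ± 1.75 per kb, and THBS3, THSD1 and THSD4 followed at 1.87 ± 0.76, 1.04 ± 0.58 and 0.63 ± 0.92 with overlapping spreads, while THSD7A had dropped to the lower limit. When TalaR-M replicate 2 was left out, these per-kb levels were 7.64 for THBS1, 1.43 for THBS3, 1.37 for THSD1 and 1.16 for THSD4.

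THBS1, the trimeric thrombospondin that binds CD36 and CD47, rose in both resistant groups. Its level was 5.81, 5.85 and 5.89 log2 CPM in the parental libraries, 10.62, 7.57 and 10.58 in the TalaR-M libraries and 8.29, 8.42 and 8.34 in the TalaR-DF libraries. In linear terms these are 56.3 to 59.1 CPM in parental libraries, 1572, 190 and 1530 CPM in TalaR-M libraries and 313 to 342 CPM in TalaR-DF libraries. Neither resistant group overlapped the parental one, and TalaR-M replicate 2 lay below all 3 TalaR-DF libraries while the other TalaR-M libraries lay above them. By rank within a library, THBS1 moved from between 3806 and 4016 in parental cells to 46, 950 and 43 in TalaR-M cells and 407 to 477 in TalaR-DF cells.

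Against parental cells, THBS1 in TalaR-M cells was up by 3.74 ± 0.72 (log2, SE), 13.3-fold, with an adjusted p of 0.00661 by limma. With only the 2 groups compared in the fit, the SE of this TalaR-M difference was 0.85 and the adjusted p 0.0389 (limma). Leaving TalaR-M replicate 2 aside, the difference was 4.75, or 26.9-fold (adjusted p = 4.78e-16). In TalaR-DF cells it was 2.50 ± 0.72 higher than in parental cells, 5.66-fold, with an adjusted p of 0.0442. All 3 groups share 1 estimate of the spread, so the SE of this TalaR-DF difference was 0.72 with TalaR-M replicate 2 in the fit and 0.06 without it. Leaving out any single parental or TalaR-DF library ended the call (adjusted p between 0.117 and 0.134), and leaving out TalaR-M replicate 2 gave an adjusted p of 2.66e-13. Between TalaR-M and TalaR-DF cells the mean difference was 1.24, and 2.25 without TalaR-M replicate 2.

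The THBS1 gene lies at chromosome 15, 39581079 to 39599466, on the plus strand (GRCh38, 22 exons), and FSIP1 overlaps it on the opposite strand. FSIP1 did not exceed 0.80 log2 CPM in any library. Summed fibroblast markers, from a cell type rich in thrombospondins, were 176 to 185 CPM in parental, 23.8 to 50.8 CPM in TalaR-M and 73.9 to 81.7 CPM in TalaR-DF libraries. Of 5 blood cell and platelet markers, platelets being another source of THBS1, 3 (CD3E, LYZ, PF4) were at 0 in all 9 libraries. The 5 summed to 0 CPM in parental, 1.27 to 3.45 CPM in TalaR-M and 0 to 1.04 CPM in TalaR-DF libraries. The part of either marker set in the THBS1 result was not tested. In bulk libraries, fewer cells of a type and less RNA per cell cannot be told apart.

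THBS3, another pentameric thrombospondin, did not pass the test in either resistant group. Its levels were 3.60, 3.94 and 3.54 log2 CPM in parental, 3.10, 4.39 and 3.06 in TalaR-M and 2.69, 3.03 and 2.38 in TalaR-DF libraries. TalaR-M replicate 2 was the highest of all 9 libraries, opposite to its place among TalaR-M libraries for THBS1. The difference from parental cells was -0.17 ± 0.36 in TalaR-M (adjusted p = 0.744) and -0.99 ± 0.36 in TalaR-DF cells (adjusted p = 0.106, limma). In the absence of TalaR-M replicate 2, these became -0.61 (adjusted p = 0.00878) and -0.99 (adjusted p = 8.37e-05), both still short of the 2-fold threshold for a call. THBS3 overlaps MTX1 and THBS3-AS1 on the opposite strand. MTX1 stood at 4.51 to 4.83 log2 CPM over the 9 libraries, and because the strand setting of the counting is not given in the sources used here, reads of the shared stretch are uncertain. THBS2, a matricellular relative of THBS1, gave -0.22 in both comparisons with parental cells (adjusted p = 0.200 and 0.260).

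**Figure D2:**
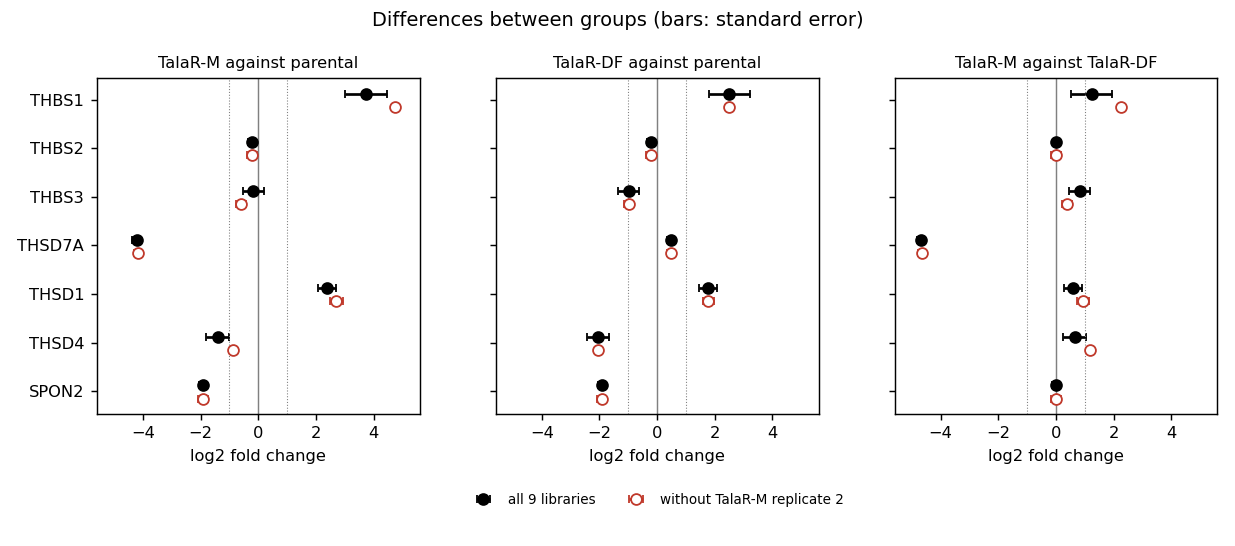
Log2 fold changes (x axis) of the 7 members that passed the filter in the 3 comparisons, with bars for the standard error. Filled points use all 9 libraries and open points leave out TalaR-M replicate 2, and dotted lines mark 2-fold. THBS1 moves from 3.74 to 4.75 and THSD4 from -1.40 to -0.87 in TalaR-M against parental cells, while THSD7A goes from -4.22 to -4.19.

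THSD1, a membrane protein with a single TSR that is best known from endothelial adhesion, was near the lower limit in parental cells and rose in both resistant groups. It gave 0.04, 0.73 and 0 log2 CPM in parental, 3.06, 1.97 and 2.87 in TalaR-M and 2.02, 2.22 and 1.86 in TalaR-DF libraries. These rest on 14 and 22 reads in the first 2 parental libraries, the third being listed at 0, and on 130, 29 and 102 in TalaR-M and 58, 63 and 45 in TalaR-DF libraries. Again no resistant library overlapped the parental range. The difference from parental cells was 2.38 ± 0.32 in TalaR-M cells (5.21-fold, adjusted p = 0.00102) and 1.78 ± 0.32 in TalaR-DF cells (3.43-fold, adjusted p = 0.0055, limma). Only 2 parental libraries exceeded 1 CPM, so THSD1 needed the resistant libraries, where it was high, to pass the filter. These p-values therefore overstate the evidence. With only the 2 groups compared in the fit, the TalaR-M difference of THSD1 had an SE of 0.36 and an adjusted p of 0.0104 (limma). Without TalaR-M replicate 2 the TalaR-M difference was 2.71. Endothelial markers summed to 17.0 to 17.4 CPM in parental, 4.56 to 5.91 CPM in TalaR-M and 2.92 to 3.24 CPM in TalaR-DF libraries, and their part in the THSD1 result was not tested. THSD1 (chromosome 13, 52377167 to 52416373, minus strand) shares a stretch with VPS36 on the same strand and has a pseudogene, THSD1P1, so its reads are uncertain to that extent. VPS36 stood at 4.66 to 5.92 log2 CPM and its lowest value was in TalaR-M replicate 2.

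THSD4, an ADAMTS-like protein that binds fibrillin microfibrils, fell in both resistant groups. Its levels were 5.28, 5.24 and 5.26 log2 CPM in parental, 4.44, 2.80 and 4.34 in TalaR-M and 2.97, 3.28 and 3.37 in TalaR-DF libraries. All 6 resistant libraries lay below the parental ones, and TalaR-M replicate 2 lay below the TalaR-DF libraries while the other TalaR-M libraries lay above them. THSD4 was -2.05 ± 0.40 in TalaR-DF against parental cells, 4.14-fold lower (adjusted p = 0.00848). In TalaR-M against parental cells it was -1.40 ± 0.40, 2.64-fold lower (adjusted p = 0.0368, limma). This last call ended without TalaR-M replicate 2, where the difference was -0.87, under 2-fold, at an adjusted p of 2.15e-05. It also ended without any single parental or TalaR-DF library (adjusted p between 0.0601 and 0.113).

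SPON2, the secreted spondin also called mindin, which takes part in innate immune recognition, was above 1 CPM in parental cells only. The parental libraries held 66, 46 and 45 reads, or 2.19, 1.76 and 1.80 log2 CPM, and all 6 resistant libraries were at 0. SPON2 was at least 3.77-fold lower in each resistant group, given with no test because it passed the filter through the parental libraries alone. Leaving out TalaR-M replicate 2 did not move this bound.

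Thus 4 of the 6 members tested, out of 9 other than THSD7A, were called in TalaR-M against parental cells. THBS1 and THSD1 were called upward and THSD4 and SPON2 downward. Of all 12471 genes tested there, 13.3% were called, 5.53% upward and 7.72% downward. The same 4 were called in the same directions in TalaR-DF against parental cells, where 9.73% of all genes were called, 2.25% upward and 7.49% downward. A call needed an adjusted p under 0.05 and at least a 2-fold difference. Both comparisons use the same parental libraries. The filter fixed the call of SPON2 in both. THSD1 needed the resistant libraries, where it was high, to pass the filter, so its calls overstate the evidence. That leaves THBS1 and THSD4, above 1 CPM in every library, beside these shares. When TalaR-M replicate 2 was left out, THSD4 also dropped from the TalaR-M count.

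THSD7A, a large membrane protein with many TSRs and an autoantigen in membranous nephropathy, was present in parental and TalaR-DF cells and nearly lost from TalaR-M cells. The parental libraries gave 4.32, 4.26 and 4.29 log2 CPM (293, 266 and 258 reads), the TalaR-M libraries 0.21, 0 and 0 (17 reads in replicate 1) and the TalaR-DF libraries 4.60, 4.84 and 4.84 (351, 393 and 363 reads). Every TalaR-DF library was above every parental one, and the TalaR-M libraries were far below both. The group means were 4.29 ± 0.03, 0.07 ± 0.12 and 4.76 ± 0.14 (SD, n = 3). TalaR-M cells thus stood at -4.69 against TalaR-DF and -4.22 against parental cells, on the log2 scale, and -4.66 and -4.19 without TalaR-M replicate 2. Because 2 TalaR-M libraries are at the lower limit, these sizes are lower bounds that depend on the prior count. The difference of TalaR-DF from parental cells was 0.47.

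As the value that chose it, the THSD7A difference between TalaR-M and TalaR-DF cells was the most negative of all genes tested, and the next ones were GPC6 at -4.63 and RHAG at -4.44. In that comparison THSD7A and THBS3 were the only 2 of the 7 members that passed the filter whose groups did not overlap, where 40.8% of all genes tested did not overlap and 6.93% were called, 5.29% upward and 1.64% downward. Both counts use all libraries. For THBS1, THSD4 and THSD1 the overlap came from TalaR-M replicate 2 alone, the other TalaR-M libraries lying above all TalaR-DF ones. The share of all genes without that library was not computed. The other differences of TalaR-M from TalaR-DF cells were 0.82 for THBS3, 0.65 for THSD4, 0.60 for THSD1 and 0 for SPON2, and 0.38, 1.18, 0.93 and 0 without TalaR-M replicate 2.

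THSD7A spans chromosome 7, 11370365 to 11832198, on the minus strand (GRCh38, 28 exons). Its nearest tested neighbours on both sides, listed by position after the THSD7A values were known, had means above the limit in TalaR-M cells. PHF14, 0.86 Mb away by start, stood at 6.67 ± 0.04 log2 CPM in parental, 6.34 ± 0.07 in TalaR-M and 6.58 ± 0.04 in TalaR-DF cells. TMEM106B, 0.38 Mb away on the other side, stood at 6.55 ± 0.04, 5.58 ± 1.22 and 6.64 ± 0.16. VWDE stood at 3.24 ± 0.11, 3.80 ± 0.25 and 3.29 ± 0.19. Over the 6 neighbours the TalaR-M against TalaR-DF difference ran from -1.06 (TMEM106B) to 0.51 (VWDE). In TalaR-M cells the lowest of the 6 was GLCCI1, at 1.98 ± 0.90 against 4.12 ± 0.02 in parental cells. Leaving TalaR-M replicate 2 aside, the TalaR-M means were 2.50 for GLCCI1, 6.28 for TMEM106B, 6.33 for PHF14 and 3.94 for VWDE, and the differences ran from -0.36 to 0.65.

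**Figure D3:**
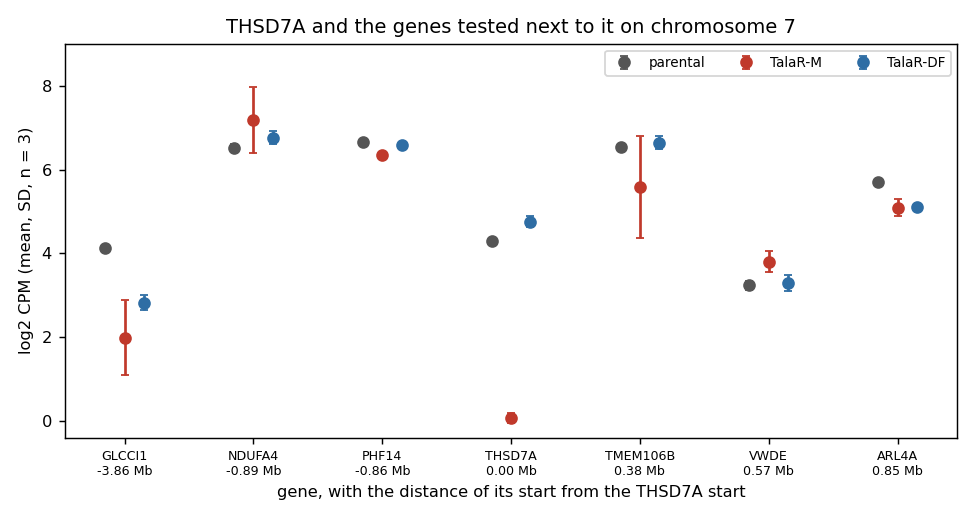
Mean log2 CPM with SD (y axis, n = 3 libraries per group) of THSD7A and the 3 tested genes on each side of it, ordered by the distance of their starts in Mb (x axis). THSD7A is the only one of the 7 near 0 in TalaR-M cells, where the neighbours have means from 1.98 to 7.19.

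The genes with the pattern most like THSD7A, by the root mean square distance over the 9 libraries after each gene's own mean was subtracted, were ARHGAP6 (0.355), GAP43 (0.810), GABRA2 (0.886), KIF21B (0.903) and ZNF385D (0.961), all in log2 units. ARHGAP6, a GTPase-activating protein gene on chromosome X, stood at 4.54 ± 0.05 in parental, 0.34 ± 0.44 in TalaR-M and 4.36 ± 0.03 log2 CPM in TalaR-DF cells. GAP43, a growth cone protein, stood at 3.33 ± 0.19, 0.86 ± 0.19 and 3.90 ± 0.15. GABRA2, a GABA receptor subunit, was at 0 in all 3 TalaR-M libraries and had means of 5.93 in parental and 4.39 in TalaR-DF cells. In the absence of TalaR-M replicate 2, the TalaR-M means were 0.52 for ARHGAP6, 0.93 for GAP43 and 0 for GABRA2. None of the 5 lies on chromosome 7.

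Other genes of the family and its pathway were taken from 3 lists, of 38 other TSR genes, 26 receptors, ligands and other binding partners, and 11 genes of TSR glycosylation. Of these 75 genes 52 were tested, and 18 other TSR genes and 3 binding partners were at 0 in all 9 libraries. In TalaR-M against parental cells 9 were called upward and 6 downward, and in TalaR-DF against parental cells 4 upward and 7 downward. In TalaR-M against TalaR-DF cells 9 were called upward and 1 downward. Without TalaR-M replicate 2, 51 were tested, and 10 were called upward and 7 downward, 5 and 10, and 12 and 1 in the same order. Of all 12317 genes tested in that setting, 790 were called upward and 882 downward, 341 and 1076, and 812 and 175. The median log2 fold change over the 52 was -0.04, -0.29 and 0.07 in these comparisons, beside -0.09, 0.01 and -0.09 over all genes tested, whose shares called are given above. When TalaR-M replicate 2 was left out, it was 0.17, -0.30 and 0.27, beside 0.01, 0.02 and -0.02 over all genes, so the sign against parental cells in TalaR-M turned. Among the genes called, SBSPON and SEMA5A, described below, passed the filter through resistant libraries alone, and HMCN1 needed those libraries. PAPLN passed it with all TalaR-DF libraries at 0. The filter thus fixed or favoured calls of these genes, and the counts that hold them overstate the evidence.

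**Figure D4:**
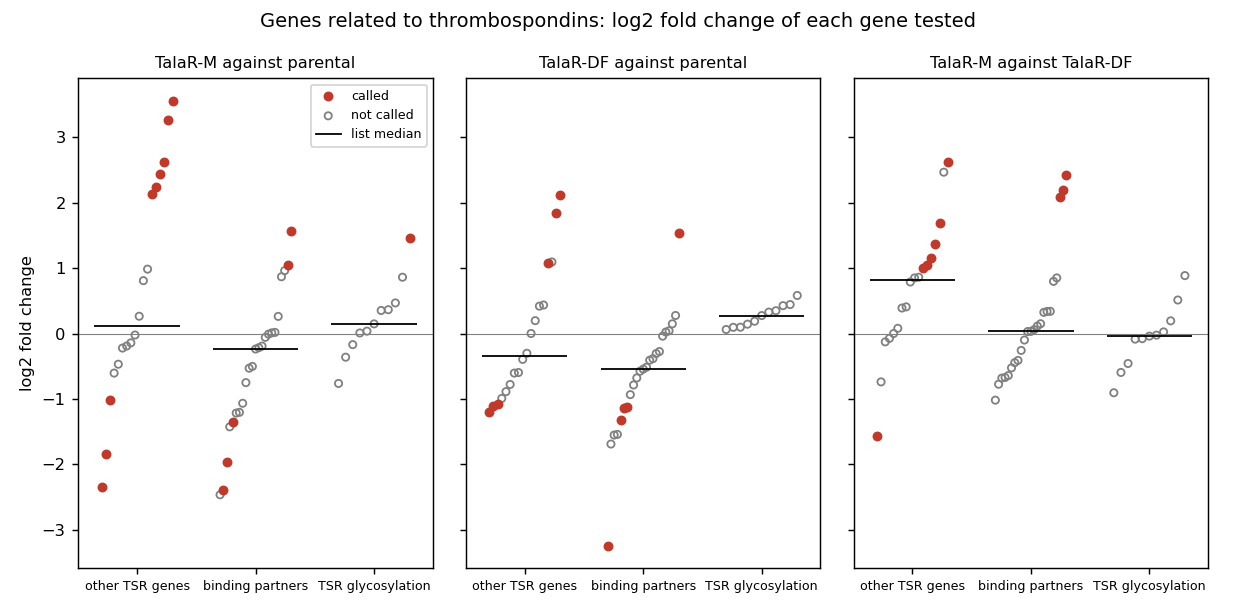
Log2 fold change (y axis) of each tested gene of the 3 lists (x axis) in the 3 comparisons; filled points are called, open points are not, and lines are list medians. The other TSR genes spread from -2.35 (ADGRB1) to 3.56 (HMCN1) in TalaR-M against parental cells, whereas 1 of the 11 glycosylation genes was called there and none in the other comparisons with all 9 libraries in the fit. Of all genes tested, 13.3%, 9.73% and 6.93% were called in the 3 comparisons.

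Among the other TSR genes, 6 of 18 tested were called upward and 3 downward in TalaR-M against parental cells, 3 and 3 in TalaR-DF against parental cells, and 6 and 1 in TalaR-M against TalaR-DF cells. Of all genes tested, 5.53% were called upward and 7.72% downward, 2.25% and 7.49%, and 5.29% and 1.64% in the same order. The median of the 18 other TSR genes was 0.12, -0.35 and 0.82 in turn. Leaving TalaR-M replicate 2 aside, the counts were 6 and 3, 4 and 3, and 6 and 1 of 17 tested, with medians of 0.0035, -0.40 and 0.79. HMCN1, a giant matrix protein of basement membranes, gave 0.30, 0.20 and 0 log2 CPM in parental, 4.65, 1.82 and 4.72 in TalaR-M and 1.09, 1.71 and 0.98 in TalaR-DF libraries. Its TalaR-M difference from parental cells was 3.56 ± 0.70 (adjusted p = 0.0075, limma) and 4.51 without TalaR-M replicate 2. HMCN1 needed the resistant libraries, where it was high, to pass the filter, so this p overstates the evidence. SBSPON, a secreted protein with a somatomedin B domain and a TSR, was at 0 in all parental libraries and at 3.42, 3.34 and 3.05 in TalaR-M and 2.35, 2.03 and 1.98 in TalaR-DF libraries. Over parental cells, SBSPON was at least 9.65-fold higher with the drug kept (TalaR-M) and at least 4.34-fold higher after withdrawal (TalaR-DF). No p is given, since only the resistant libraries brought it past the filter, though it is among the called genes counted above. Unlike for HMCN1, TalaR-M replicate 2 lay between the other TalaR-M libraries, and the TalaR-M difference was 3.27 with it and 3.23 without it.

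SEMA5A, a guidance semaphorin with TSRs, was above 1 CPM only in TalaR-M libraries, at 3.10, 1.52 and 3.24 log2 CPM. It was at least 6.15-fold higher there than in either other group. It passed the filter through the TalaR-M libraries alone and had to differ, so no p is given, though it is among the called genes counted above. In the absence of TalaR-M replicate 2, it was above the limit in too few libraries to be tested. The CCN genes, which encode matricellular proteins with a TSR, include CCN1 and CCN3, which rose in both resistant groups, and CCN2, which rose in TalaR-M cells. CCN1 gave 5.42, 5.35 and 5.50 log2 CPM in parental, 7.97, 7.68 and 7.92 in TalaR-M and 6.53, 6.58 and 6.38 in TalaR-DF libraries, with no overlap between any groups. Its difference from parental cells was 2.43 in TalaR-M (adjusted p = 4.88e-06) and 1.07 in TalaR-DF cells (adjusted p = 0.000712), and TalaR-M exceeded TalaR-DF cells by 1.36 (adjusted p = 0.000374). CCN2 in TalaR-M cells exceeded parental cells by 2.13 (adjusted p = 1.57e-05) and TalaR-DF cells by 1.69 (adjusted p = 0.000183). CCN3 exceeded its parental level by 2.24 in TalaR-M and by 1.84 in TalaR-DF cells (adjusted p = 0.000421 and 0.00157). Without TalaR-M replicate 2, the differences of TalaR-M from parental cells were 2.52 for CCN1, 2.22 for CCN2 and 2.54 for CCN3, and those from TalaR-DF cells were 1.45 for CCN1 and 1.79 for CCN2. CCN4 and CCN6 were at 0 throughout, and CCN5 did not exceed 0.45 log2 CPM in any library. The promoter window of CCN2 held 3 GGAATG matches.

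ADGRB1, an adhesion receptor with TSRs first described as an inhibitor of brain angiogenesis, fell. Its levels were 6.32, 6.43 and 6.48 log2 CPM in parental, 3.86, 4.30 and 4.01 in TalaR-M and 5.61, 5.81 and 5.47 in TalaR-DF libraries, again without overlap. The difference was -2.35 in TalaR-M against parental cells (adjusted p = 2.04e-05) and -1.57 against TalaR-DF cells (adjusted p = 0.000529, limma). ADAMTSL4, which like THSD4 binds fibrillin, was -1.85 in TalaR-M and -1.11 in TalaR-DF against parental cells (adjusted p = 0.00325 and 0.0384). When TalaR-M replicate 2 was left out, the TalaR-M differences were -2.47 and -1.69 for ADGRB1 and -1.45 for ADAMTSL4. PAPLN, a papilin of the matrix, was at 0 in all TalaR-DF libraries and at least 2.29-fold lower there than in parental cells, given with no p because it passed the filter through the other groups. It too is among the called genes counted above.

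Of the binding partners, 2 of 23 tested were called upward and 3 downward in TalaR-M against parental cells, 1 and 4 in TalaR-DF against parental cells, and 3 and 0 in TalaR-M against TalaR-DF cells. Beside these counts, 13.3%, 9.73% and 6.93% of all genes tested were called in either direction. The median of the binding partners was -0.24, -0.54 and 0.03. Leaving TalaR-M replicate 2 aside, the counts were 3 and 4, 1 and 7, and 5 and 0, and the medians 0.12, -0.54 and 0.37, so that the first changed sign. CD36, a scavenger receptor that binds the TSRs of THBS1, was at 0 in all 9 libraries. CD47, the receptor for its C-terminal part, lay between 5.39 and 5.64 log2 CPM in every library, and differed from parental cells by -0.06 ± 0.11 in TalaR-M (adjusted p = 0.721) and 0.04 ± 0.11 in TalaR-DF cells (adjusted p = 0.883, limma), and by -0.10 in TalaR-M cells without replicate 2 (adjusted p = 0.290). LRP1, the endocytic receptor that clears THBS1, gave 7.33, 7.18 and 7.31 in parental, 5.28, 3.89 and 5.47 in TalaR-M and 3.75, 4.49 and 3.85 in TalaR-DF libraries. It fell in both, with log2 differences from parental cells of -2.39 in TalaR-M (adjusted p = 0.00349) and -3.24 in TalaR-DF cells (adjusted p = 0.000831), and of -1.90 in TalaR-M cells without replicate 2. Against TalaR-DF cells LRP1 in TalaR-M cells gave 0.85 (adjusted p = 0.193), and 1.35 without that library (adjusted p = 1.03e-05), which is then a call.

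TGFB1, the growth factor whose latent form THBS1 can activate, gave 9.25, 9.03 and 9.07 log2 CPM in parental, 7.73, 7.94 and 7.64 in TalaR-M and 8.32, 8.005 and 8.22 in TalaR-DF libraries. It differed from parental cells by -1.35 ± 0.15 in TalaR-M (adjusted p = 0.000318) and by -0.93 ± 0.15 in TalaR-DF cells (adjusted p = 0.00282), the latter under 2-fold. VEGFA, the angiogenic factor that THBS1 binds, fell, with differences of -1.96 in TalaR-M and -1.32 in TalaR-DF cells (log2, adjusted p = 0.00432 and 0.0308). FGF2, another bound growth factor, rose by 1.57 and 1.54 (adjusted p = 0.0341 and 0.0429, limma), and by 2.16 in TalaR-M cells without replicate 2. SDC1, a heparan sulfate proteoglycan, went up in TalaR-M cells (1.04, adjusted p = 0.00129, and 0.996, just under the threshold, without replicate 2) and down in TalaR-DF cells (-1.14, adjusted p = 0.000937). It was 2.19 higher in TalaR-M than in TalaR-DF cells (adjusted p = 6.57e-05). FBN1, the microfibril protein, and VLDLR, a lipoprotein receptor, were 2.42 and 2.08 higher in TalaR-M than in TalaR-DF cells (adjusted p = 0.0339 and 0.00192). In the absence of TalaR-M replicate 2, the differences of TalaR-M from TalaR-DF cells were 3.22 for FBN1, 2.40 for VLDLR and 2.14 for SDC1, and those from parental cells were -1.43 for TGFB1 and -1.50 for VEGFA.

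All 11 TSR glycosylation genes were tested, and their median log2 fold change was 0.15, 0.27 and -0.04 in the 3 comparisons. POFUT2, which adds fucose to the TSR, differed from parental cells by 0.15 ± 0.19 in TalaR-M (adjusted p = 0.581) and 0.19 ± 0.19 in TalaR-DF cells (adjusted p = 0.604, limma). Without TalaR-M replicate 2 the TalaR-M difference of POFUT2 was 0.37 (adjusted p = 0.000424), under 2-fold. B3GLCT, which extends that fucose with glucose, gave 2.75, 2.31 and 2.49 log2 CPM in parental, 4.22, 3.74 and 4.00 in TalaR-M and 3.25, 2.89 and 3.16 in TalaR-DF libraries. TalaR-M cells exceeded parental cells by 1.47 ± 0.19 (adjusted p = 0.000994) and TalaR-DF cells by 0.89, the latter under 2-fold (adjusted p = 0.0222). Leaving out TalaR-M replicate 2 gave 1.59 and 1.01, the latter then a call (adjusted p = 0.000131) and the single glycosylation gene called between TalaR-M and TalaR-DF cells. The TalaR-DF difference of 0.58 did not pass (adjusted p = 0.0761).

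How far each member moved in TalaR-M replicate 2 was also measured against the mean of TalaR-M replicates 1 and 3. THBS1 was -3.03, THSD4 -1.58, THSD1 -0.996, THBS3 1.31 and THSD7A -0.10 in log2 CPM. THBS1 and THSD4 have transcripts of 7789 and 9373 bases, longer than 90.0% and 94.5% of the genes compared, while THBS3 and THSD1 have transcripts of 3145 and 3026 bases. The part of transcript length in these member values was not tested.

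**Figure D5:**
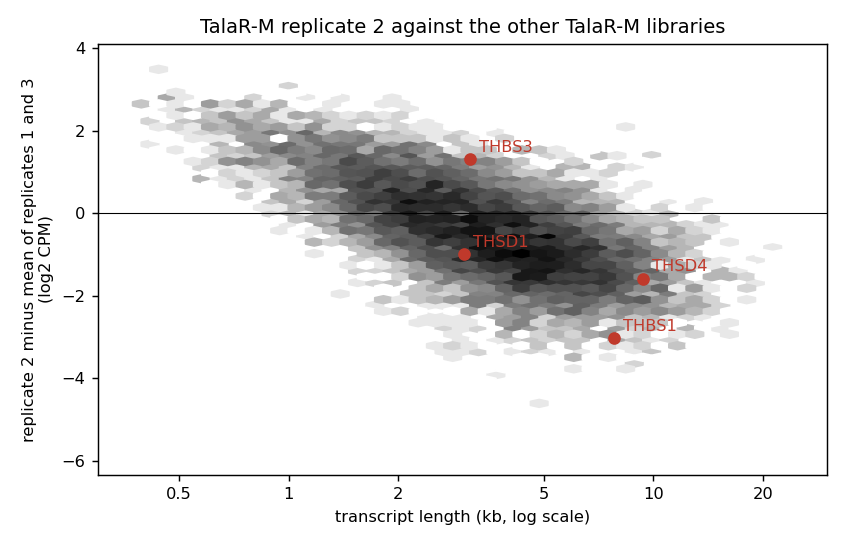
Log2 CPM of TalaR-M replicate 2 minus the mean of TalaR-M replicates 1 and 3 (y axis) against transcript length in kb on a log scale (x axis) for 10464 genes, darker where genes are denser, with 4 members marked in red. THBS1 lies at -3.03 among long transcripts and THBS3 at 1.31 among shorter ones; THSD7A is not marked because it was at the lower limit.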

How the data were processed

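The analysis covered 9 PSN1 RNAseq libraries, 3 replicates for each of the groups (parental, TalaR-M, TalaR-DF), and the other 39 of the 48 samples of the series were not analysed here. Libraries were made from poly(A) RNA with a stranded kit. The authors deposited log2 CPM values for 20241 genes, with a prior count scaled to the library and values under 0 set to 0, as read from the values themselves. The build was hg38 per the submitters' processing notes, and the aligner, counting method and annotation are not given in the sources used here. TalaR-M was read from the columns headed as maintained, and TalaR-DF from those headed as withdrawn.

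Reads were recovered for depth only: all values under 50 CPM came out whole within 0.1 reads. Log2 values were tested with limma 3.58.1 in R 4.3.3, in 1 model of 3 groups with a mean-variance trend, for the 12471 genes above 1 CPM in at least 3 libraries, with Benjamini-Hochberg adjustment over all of them. No pseudocount was added. The deposited prior count and the lower limit at 0 already understate fold changes of low genes. No exact permutation test of 1 gene (two-sided) was run, since 3 against 3 cannot reach below 0.10. The members, lists, motifs and tests were chosen with earlier results of these data known. Named from the lists were up to 3 called genes of largest change per comparison, CD36, CD47, TGFB1, LRP1, POFUT2, B3GLCT and, after their values were seen, CCN1, CCN2, CCN3, CCN4, CCN6, ADAMTSL4, SDC1 and VEGFA where outside that rule. Positions and transcript lengths came from GENCODE 44, matched by symbol for 96.0% of genes. The test was tried on simulated data. Alternatives changed the prior, filter, scaling, trend, threshold, groups in the fit, library weights, the replicate block and the libraries. Figures were drawn with matplotlib 3.10.9. 1 marker gene is not reported here.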

Additional observations from a re-analysis of the deposited data

How the results depend on the processing

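With 8 CPM added before the log2, 1 member was called in each comparison with parental cells, and with a filter of 5 CPM 2 were called in each. With 1 library left out, the count ran from 2 to 4 in both. It was 2 without any single parental library, where SPON2, whose call the filter fixed, no longer passes. Of the related genes, 13 to 17 were called in TalaR-M against parental, 5 to 15 in TalaR-DF against parental and 7 to 13 in TalaR-M against TalaR-DF cells with 1 library left out; the lowest TalaR-DF counts were 5 without TalaR-DF replicate 3 and 6 without parental replicate 3 or TalaR-DF replicate 2, 7 without parental replicate 1 or 2 or TalaR-DF replicate 1. With 8 CPM added 4 were called in TalaR-DF against parental and 5 in TalaR-M against TalaR-DF cells, and with no fold threshold 19 in TalaR-DF against parental cells. Apart from the fit without TalaR-M replicate 2, the share of all genes called in these settings was not counted. Whether these counts of members and related genes changed more than calls over all genes was therefore not tested. The THSD7A difference of TalaR-M from TalaR-DF cells was -2.07 with 8 CPM added, -6.87 with 0.1 CPM added, and -4.77 to -4.65 with 1 library left out. THBS3 in TalaR-M against parental cells changed sign without TalaR-M replicate 1 (0.037) and replicate 3 (0.060), over a range of -0.61 to 0.060. THSD4 in TalaR-M against parental cells also lost its call with only the 2 groups compared (adjusted p = 0.111), with 8 CPM added (-0.995) and with array weights by the gene-by-gene method (-0.89). THBS1 in TalaR-DF against parental cells lost it with 8 CPM added (adjusted p = 0.0501) and with no filter (0.0521). THSD1 lost it in TalaR-DF cells with 0.1 CPM added (adjusted p = 0.0831). Rescaling by the median ratio moved the median of all genes from -0.09 to 0.03 in TalaR-M against parental and from -0.09 to 0.05 in TalaR-M against TalaR-DF cells. Where no cause follows from the setting itself, the cause was not tested.

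Same-numbered libraries correlated in their deviations at -0.31 to 0.16 (9 pairs) and others at -0.40 to 0.37 (18 pairs). Because TalaR-M replicate 2 stood so far apart, these correlations cannot settle whether the replicate numbers mark paired libraries. With a replicate block, 3 members were called in each comparison with parental cells, and 14, 8 and 8 related genes in the 3 comparisons. The share of all genes called with the block was not counted. The THSD7A difference stayed -4.69. THSD4 in TalaR-M cells (adjusted p = 0.0561) and THBS1 in TalaR-DF cells (adjusted p = 0.063, limma) then missed the threshold. Depth limits the members near 1 CPM, THSD1, THBS2, SPON2 and THSD7A in TalaR-M cells, where 1 CPM is a few reads.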
